A study of Mus musculus with 26 samples.

Results

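Dual-specificity MAP kinase phosphatases were described in microglia, the resident macrophages of the brain, sorted from mice after repeated social defeat stress. The 9 genes Dusp1, Dusp2, Dusp3, Dusp4, Dusp5, Dusp6, Dusp7, Dusp10 and Dusp16 were found through the transcript accession of each array probe, and each gene is given by its brightest probe, the one with the highest mean over the 26 arrays. All 9 were on the array, with 11 probes between them. Of these, 8 entered the tests, among 24735 genes tested in all. Dusp5 was too dim to be tested.

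MAP kinases (ERK, JNK and p38) are switched on by phosphorylation of a threonine and a tyrosine in their activation loop, and the dual-specificity phosphatases switch them off by removing both phosphates. Several of these phosphatases are themselves transcribed in response to MAP kinase signalling, which makes them a negative feedback on the pathway. In macrophages and microglia some of these phosphatases are known to limit the production of cytokines after Toll-like receptor signalling. Dusp1 is also a known target of glucocorticoids.

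All mice were on a C57BL/6 background and carried CX3CR1EGFP/+, an allele that labels microglia with green fluorescence. One set carried in addition a double knockout of Toll-like receptors (TLR-DKO), and the other (WT) had no further allele. Mice underwent repeated social defeat stress (R-SDS) or were moved between cages as naive controls, and fluorescent cells were sorted 1.5 hours after the last session from punches of the nucleus accumbens (NAc) or the medial prefrontal cortex (mPFC). Each array measured amplified RNA from the pooled cells of 3 to 6 mice, with 500 pg of RNA per sample. In the NAc there were 4 TLR-DKO R-SDS, 3 TLR-DKO naive, 3 WT R-SDS and 3 WT naive arrays. In the mPFC there were 3 TLR-DKO R-SDS, 4 TLR-DKO naive, 3 WT R-SDS and 3 WT naive arrays. The labels call stressed TLR-DKO mice resilient and stressed WT mice susceptible, so genotype and behavioural outcome cannot be told apart. The sort gate takes every fluorescent cell, and the allele also labels other mononuclear phagocytes. The labels give 2 independent experiments with different mice but not which array came from which, so p-values measure the spread between these pooled samples.

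Levels are on a log2 scale on which 0 is the 75th percentile of the array's signals, and a probe is called detected where the scanner flagged it as well above background. Between 49.97% and 70.99% of probes were detected per array, and no spot was saturated. Cx3cr1 was detected on all 26 arrays. Tlr2 was detected on 0 of 14 TLR-DKO arrays and on 12 of 12 WT arrays. All 12 microglia markers examined were detected on every array. The third WT mPFC R-SDS array stood apart, with a mean correlation of 0.793 with the other arrays, and it holds the highest of the 26 values of Dusp6 and Dusp7 and the lowest of Dusp2 and Dusp16. The first TLR-DKO mPFC naive array stood apart less, with a mean correlation of 0.826. Values without these 2 arrays are given beside the mPFC results that they move most.

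Detection differed widely between these genes. Dusp1, Dusp2, Dusp3, Dusp6 and Dusp7 were detected on 26 of 26 arrays, Dusp16 on 25, Dusp10 on 22, Dusp4 on 10 and Dusp5 on 6. The second probes of Dusp3 and Dusp16 were each detected on 9 arrays. Dusp6, a cytoplasmic phosphatase of ERK, was the steadiest: its standard deviation within groups was 0.33, and 95.3% of the genes tested varied more. Dusp10 and Dusp4 varied most, with standard deviations of 1.92 and 1.89, against a median of 0.76 over all genes tested. In bulk RNA, fewer cells that express a gene and less RNA per cell cannot be told apart.

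**Figure D1:**
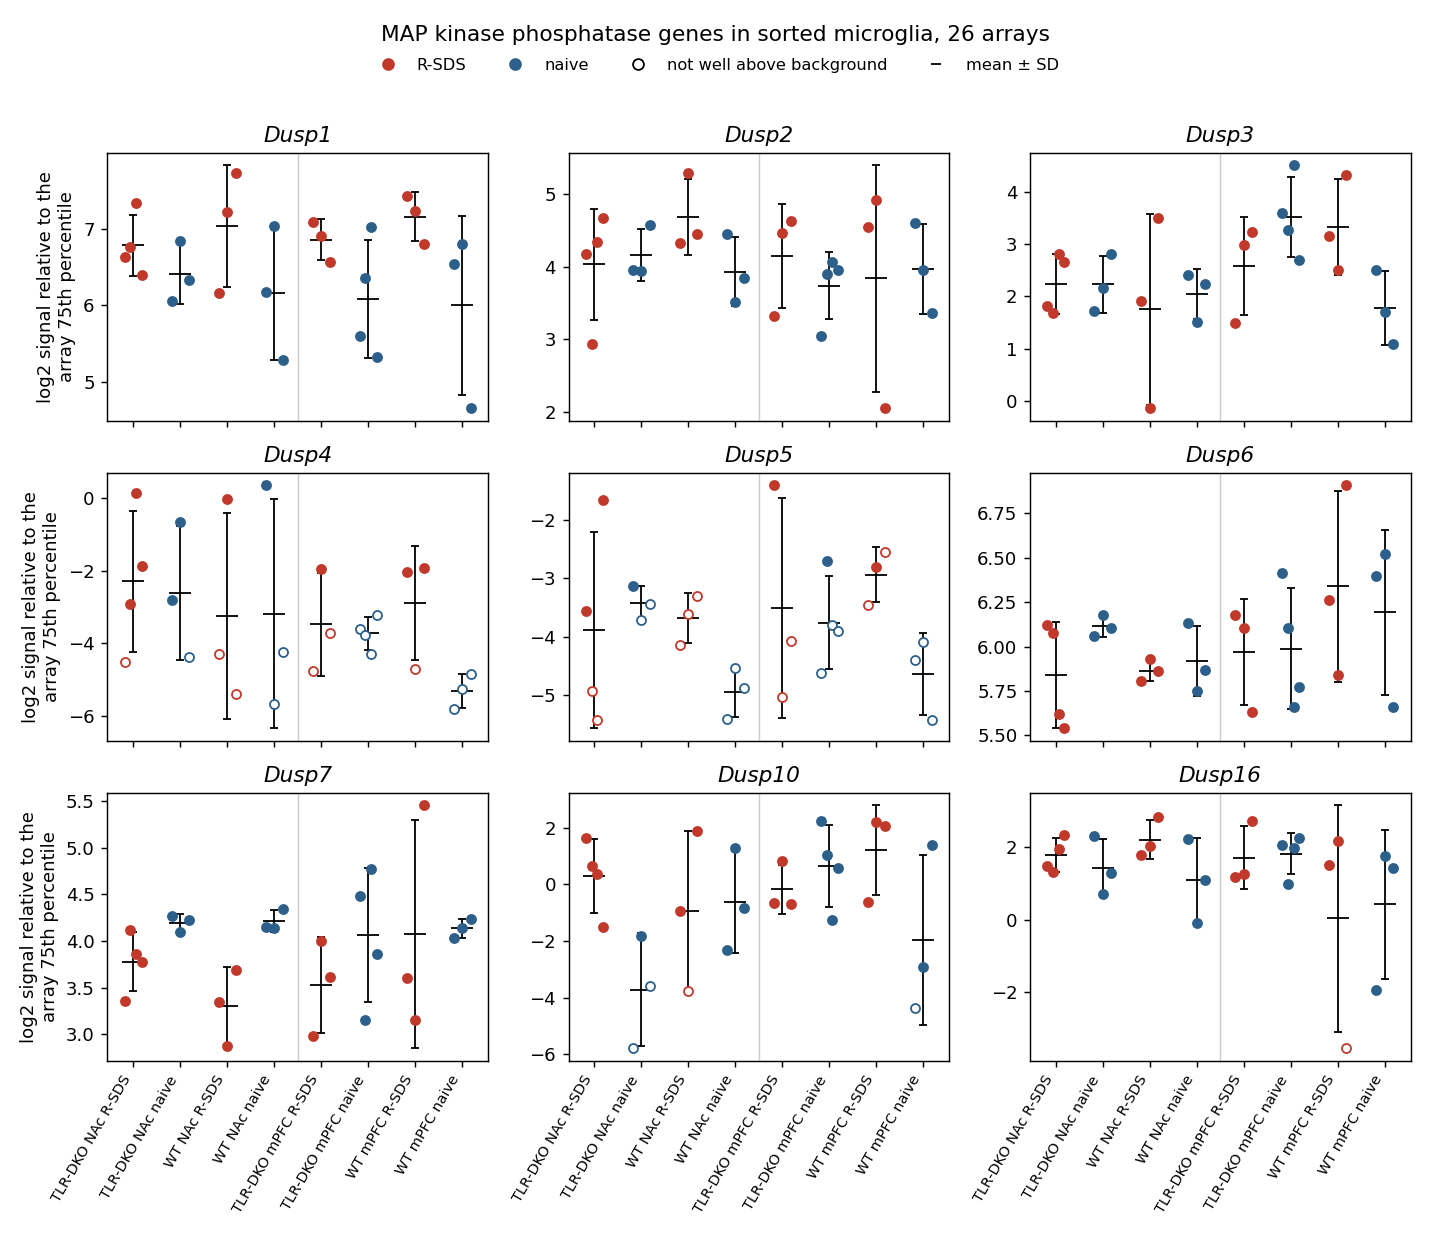
Level of each phosphatase gene in the 8 groups (y axis, log2 scale with 0 at the array's 75th percentile; red R-SDS, blue naive; open circles are arrays not well above background; bars are mean ± SD). Dusp6 stays between 5.54 and 6.91 on all 26 arrays, whereas Dusp10 spans -5.79 to 2.23.

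After stress, 1 of 8 members, Dusp1, had a mean above naive in all 4 pairs of groups, as did 9.15% of all genes. Dusp7 alone had a mean below naive in all 4 pairs, as did 5.73% of all genes. For both genes the readings of R-SDS and naive arrays overlapped in most pairs. No phosphatase passed the threshold. At an adjusted p under 0.05, 0 of the 8 members passed in the stress effect averaged over both genotypes and both regions, where 0.0% of all genes tested passed (limma, Benjamini-Hochberg over all genes). At an unadjusted p under 0.05 there were 3 of 8 members, Dusp1, Dusp7 and Dusp10, against 5.46% of all genes. No member passed in any of the other comparisons either. In the pairs of groups 0 of 8 passed in WT mPFC and in TLR-DKO NAc, where 0.00809% of all genes did, and 0 of 8 in TLR-DKO mPFC and WT NAc, where 0.0% did. In the genotype comparison of R-SDS NAc, 0.00809% of all genes passed, and in each of the other 3 genotype comparisons 0.0121%. The median of the 8 averaged differences was 0.23, against 0.04 for all genes tested.

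Dusp1 encodes a nuclear phosphatase of p38 and JNK that is made within minutes of many stimuli. Its promoter is shown because Dusp1 was the only one of the 8 promoters available that held a cyclic AMP response element (letters TGACGTCA) in the 250 bases before the start. RefSeq (GRCm38.p6) places this window at chr17:26508473-26508722 on the minus strand, and capitals mark the response element, 143 bases before the start, and an E-box (CACGTG), 126 bases before it.
Dusp1 promoter: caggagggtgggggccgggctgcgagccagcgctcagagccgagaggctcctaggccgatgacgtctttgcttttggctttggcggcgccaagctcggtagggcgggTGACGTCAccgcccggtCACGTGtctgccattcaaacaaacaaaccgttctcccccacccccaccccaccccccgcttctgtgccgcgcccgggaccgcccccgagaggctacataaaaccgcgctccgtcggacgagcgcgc
The response element occurs in 1.55% of 32817 promoters searched on both strands, and the E-box in 6.02%. Neither motif overlaps the other, and a match describes letters, not a bound site.

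In the mPFC, Dusp1 read 7.10, 6.91 and 6.57 on the TLR-DKO R-SDS arrays, against 5.60, 6.36, 7.03 and 5.32 on the TLR-DKO naive arrays. It read 7.44, 7.23 and 6.80 on the WT R-SDS arrays, against 6.54, 6.80 and 4.65 on the WT naive arrays. The TLR-DKO groups overlapped, while the 3 WT R-SDS arrays all lay above the WT naive ones, though the closest R-SDS and naive arrays both read 6.80. In the NAc, Dusp1 read 6.64, 6.76, 7.34 and 6.40 on the TLR-DKO R-SDS arrays, against 6.06, 6.85 and 6.34 on the TLR-DKO naive arrays. It read 6.16, 7.22 and 7.73 on the WT R-SDS arrays, against 6.18, 7.03 and 5.28 on the WT naive arrays. Both NAc pairs overlapped, and the 3 lowest readings of Dusp1 among all 26 arrays were naive.

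The R-SDS minus naive difference of Dusp1 was 0.37 ± 0.52 (SE) in TLR-DKO NAc, 0.87 ± 0.56 in WT NAc, 0.78 ± 0.52 in TLR-DKO mPFC and 1.16 ± 0.56 in WT mPFC. The WT mPFC difference had an adjusted p of 0.83 from limma. Of all genes tested, 9.15% were higher in all 4 pairs, as Dusp1 was. The averaged difference was 0.80 ± 0.27, with a 95% interval of 0.23 to 1.36, an unadjusted p of 0.00781 and an adjusted p of 0.809 (limma). Over 13 arrays each, Dusp1 averaged 6.95 ± 0.45 after R-SDS and 6.16 ± 0.75 (SD) in naive mice.

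Of the 4 pairs, WT mPFC leaned most on 1 array: without the third WT naive array, at 4.65, its difference was 0.49. The averaged difference stayed between 0.63 and 0.91 when any single array was left out, and was 0.80 without the 2 arrays that stood apart. It was 0.81 ± 0.23 among arrays scanned on the first day and 1.08 ± 0.46 among those of the second. Stress effects on Dusp1 did not differ detectably between genotypes: the TLR-DKO minus WT difference of the stress effect was -0.38 ± 0.76 in the mPFC (95% interval -1.97 to 1.21) and -0.50 ± 0.76 in the NAc (-2.10 to 1.09).

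**Figure D2:**
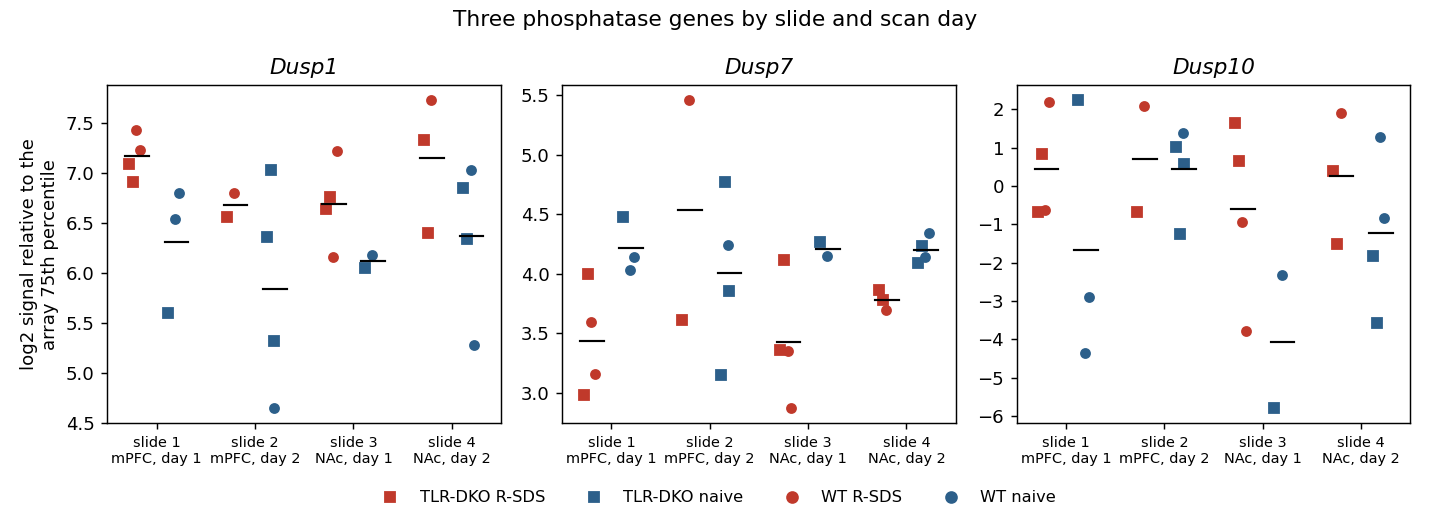
Dusp1, Dusp7 and Dusp10 by array slide (x axis; slides 1 and 2 hold mPFC, slides 3 and 4 NAc; scan days 1 and 2) on the log2 scale with 0 at the 75th percentile (y axis), with R-SDS red, naive blue, TLR-DKO squares, WT circles and bars at the mean. Mean Dusp1 is higher in R-SDS than naive arrays on all 4 slides, while Dusp7 is lower on slides 1, 3 and 4 and higher on slide 2. Slide 2 holds the WT mPFC R-SDS array that stood apart, on which Dusp7 read 5.46.

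Dusp2 and Dusp5 encode nuclear phosphatases that are also inducible; Dusp2 is best known in immune cells and Dusp5 acts on ERK. Dusp2 averaged 4.16 ± 0.88 after R-SDS and 3.93 ± 0.45 (SD, n = 13 each) in naive mice. Its averaged difference was 0.22 ± 0.29 (95% interval -0.39 to 0.84), and the 4 pairs had both signs, between -0.13 in WT mPFC and 0.75 in WT NAc. The third WT mPFC R-SDS array read 2.05, the lowest of all. Without the 2 arrays that stood apart the WT mPFC difference was 0.76 ± 0.51, of the other sign, and the averaged difference 0.39.

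Dusp5 was detected on 1 of 3 TLR-DKO R-SDS and 1 of 4 TLR-DKO naive arrays of the mPFC. It was detected on 1 of 3 WT R-SDS and 0 of 3 WT naive arrays of the mPFC. In the NAc it was detected on 2 of 4 TLR-DKO R-SDS and 1 of 3 TLR-DKO naive arrays and on none of the 6 WT arrays. Its measured means were -2.94 in WT mPFC R-SDS and -4.64 in WT mPFC naive arrays. The WT mPFC R-SDS mean was 1.82-fold a floor set on the naive arrays. That floor is the lowest signal well above background on each array, or the probe's own signal where higher. The ratio is not a lower bound, since the R-SDS mean includes arrays on which Dusp5 was not detected. No p is given for this untested gene. Its promoter is shown for its 2 CArG boxes, the motif that serum response factor binds, which capitals mark 82 and 72 bases before the start (chr19:53528895-53529144, plus strand, GRCm38.p6).
Dusp5 promoter: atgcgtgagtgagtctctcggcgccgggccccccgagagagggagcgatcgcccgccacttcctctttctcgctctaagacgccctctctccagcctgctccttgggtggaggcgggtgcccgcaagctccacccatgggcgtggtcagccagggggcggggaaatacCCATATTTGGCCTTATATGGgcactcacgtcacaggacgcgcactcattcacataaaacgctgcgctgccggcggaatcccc
A CArG box occurs in 1.47% of the 32817 promoters. None of the 8 promoters held an AP-1 site (TGANTCA, 6.75% of all promoters), a glucocorticoid response element (0.0366%) or a TATA box (TATAAA, 12.4%) in this window, and Dusp2 held an E-box 109 bases before its start. No match says only that these letters are not in the window.

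Dusp4, a nuclear phosphatase of ERK and JNK, entered the tests only through the TLR-DKO NAc R-SDS group, where 3 of 4 arrays detected it. In WT mPFC it read -2.05, -4.69 and -1.92 on the R-SDS arrays, against -5.81, -5.26 and -4.85 on the naive arrays. Of the R-SDS arrays 2 of 3 were detected, and of the naive arrays 0 of 3. There the R-SDS mean of Dusp4 was 1.89-fold the same kind of floor on the naive arrays. This is not a lower bound, since the mean includes the undetected reading of -4.69. The measured difference was 2.42 ± 1.45 (95% interval -0.60 to 5.44), with an adjusted p of 0.833 (limma). The reading of -1.92 is from the array that stood apart; without the 2 such arrays the difference was 1.94 ± 1.69, and with normexp background correction it was 0.58 ± 0.60. In TLR-DKO mPFC it was detected on 1 of 3 R-SDS and 0 of 4 naive arrays, and the ratio to this floor was 1.04-fold, likewise not a lower bound. Of all genes tested, 5.06% lay wholly higher in WT mPFC R-SDS than naive arrays; among the 8 members these were Dusp1 and Dusp4. For Dusp4 the closest arrays, -4.69 and -4.85, were both not well above background, so their order carries no information on its level.

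Dusp6 and Dusp7 encode cytoplasmic phosphatases that act on ERK, and Dusp6 is a standard readout of ERK activity. Dusp6 averaged 5.99 ± 0.36 after R-SDS and 6.05 ± 0.29 (SD, n = 13 each) in naive mice. Its averaged difference was -0.05 ± 0.15, with a 95% interval of -0.36 to 0.27, the narrowest of the 8 members.

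Dusp7 read 3.36, 4.11, 3.86 and 3.78 on the TLR-DKO NAc R-SDS arrays, against 4.27, 4.09 and 4.23 on the TLR-DKO NAc naive arrays. It read 3.35, 2.87 and 3.69 on the WT NAc R-SDS arrays, against 4.15, 4.14 and 4.35 on the WT NAc naive arrays. One TLR-DKO R-SDS array reached the naive range, while in WT NAc every R-SDS array lay below every naive array, as for 3.66% of all genes. In the mPFC Dusp7 read 2.98, 4.00 and 3.61 on the TLR-DKO R-SDS arrays, against 4.48, 3.15, 4.77 and 3.86 on the TLR-DKO naive arrays. It read 3.60, 3.16 and 5.46 on the WT R-SDS arrays, against 4.03, 4.14 and 4.24 on the WT naive arrays. The reading of 5.46 is from the array that stood apart, and the other WT mPFC R-SDS arrays read below the WT mPFC naive arrays.

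The R-SDS minus naive difference of Dusp7 was -0.42 ± 0.44 (SE) in TLR-DKO NAc and -0.91 ± 0.47 in WT NAc. It was -0.54 ± 0.44 in TLR-DKO mPFC and -0.07 ± 0.47 in WT mPFC, the last -0.76 ± 0.40 without the 2 arrays that stood apart; 5.73% of all genes were lower in all 4 pairs. The averaged difference was -0.48 ± 0.23 (95% interval -0.96 to -0.01), with an unadjusted p of 0.0471 and an adjusted p of 0.912 (limma). Without the third WT mPFC R-SDS array it was -0.66, and without both arrays that stood apart -0.62. Within scan days it was -0.82 ± 0.27 on the first day and 0.00 ± 0.32 on the second. The second day includes the third WT mPFC R-SDS array, whose reading of 5.46 was the highest for Dusp7.

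The promoter of Dusp7 (chr9:106368382-106368631, plus strand, GRCm38.p6) is shown beside that of Dusp1 because the Dusp7 means after R-SDS were below naive in all 4 pairs. The readings overlapped in every pair except WT NAc. This promoter held none of the motifs searched, so no letter is in capitals.
Dusp7 promoter: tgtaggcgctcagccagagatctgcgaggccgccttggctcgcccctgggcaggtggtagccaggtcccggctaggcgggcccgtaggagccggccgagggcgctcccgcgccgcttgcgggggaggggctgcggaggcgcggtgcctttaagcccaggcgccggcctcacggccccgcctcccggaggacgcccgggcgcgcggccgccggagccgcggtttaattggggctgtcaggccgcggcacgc
Its GC content was 77.2%, against 68.4% for Dusp1 and a median of 52.4% over all promoters.

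**Figure D3:**
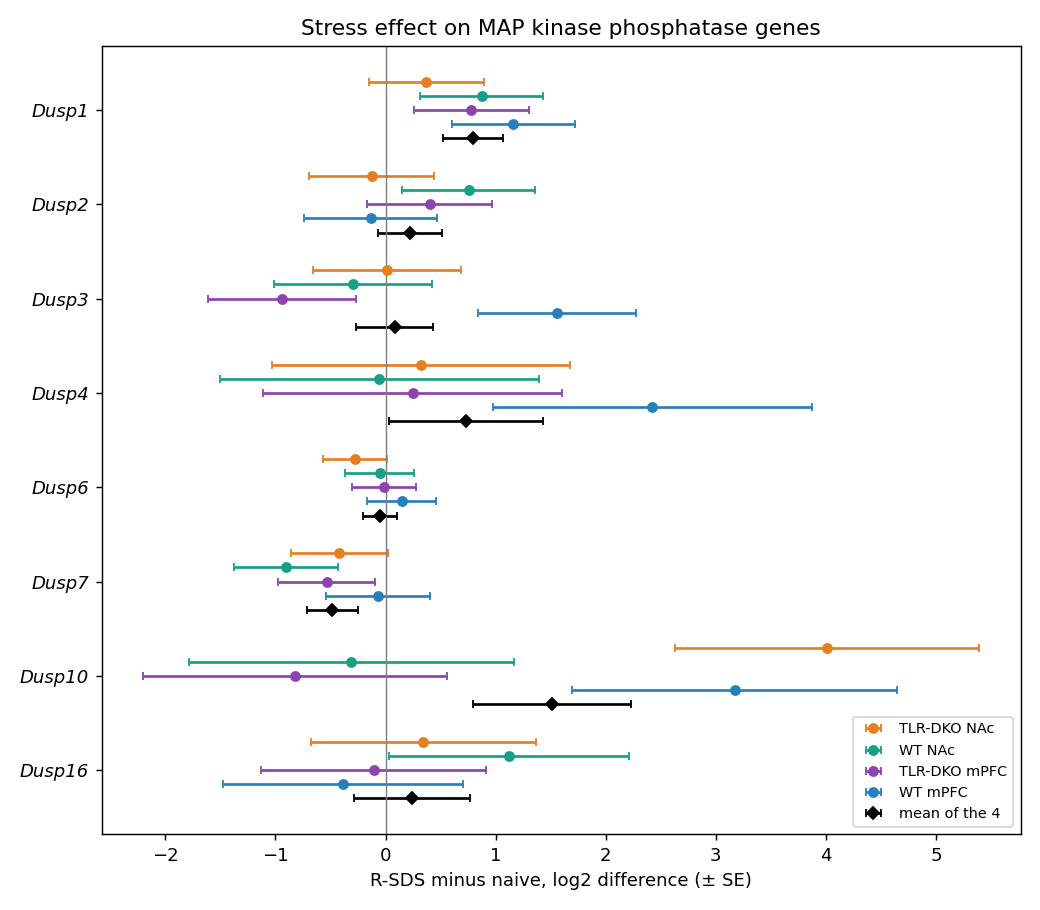
R-SDS minus naive difference (x axis, log2, ± SE) for the 8 genes tested, in TLR-DKO NAc, WT NAc, TLR-DKO mPFC and WT mPFC, with the mean of the 4 as black diamonds. Dusp1 lies right of 0 in all 4 pairs and Dusp7 left of it, while Dusp10 and Dusp3 have pairs on both sides.

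Dusp10 and Dusp16 encode phosphatases that prefer JNK and p38 over ERK. Dusp10 read 1.63, 0.64, 0.38 and -1.50 on the TLR-DKO NAc R-SDS arrays, against -5.79, -1.81 and -3.57 on the TLR-DKO NAc naive arrays. The groups did not overlap. The naive arrays of -5.79 and -3.57 were not well above background, so values that include this naive mean depend on readings at background. In WT NAc it read -0.93, -3.78 and 1.89 on the R-SDS arrays, against -2.33, 1.26 and -0.82 on the naive arrays, which overlapped.

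The stress difference of Dusp10 was 4.01 ± 1.38 in TLR-DKO NAc, with an unadjusted p of 0.00855 and an adjusted p of 1.0 (limma), and 1.87 ± 0.83 with normexp background correction. Of all genes tested, 3.04% had an unadjusted p under 0.05 there and 2.11% had R-SDS arrays wholly above naive arrays. It was -0.31 ± 1.48 in WT NAc, -0.82 ± 1.38 in TLR-DKO mPFC and 3.17 ± 1.48 in WT mPFC. In WT mPFC, Dusp10 and Dusp3 had an unadjusted p under 0.05, as did 5.9% of all genes. Without the 2 arrays that stood apart, neither did: Dusp10 was then at 2.74 ± 1.68 and Dusp3 at 1.06 ± 0.80, against 1.56 ± 0.72 for Dusp3 with them. The averaged difference of 1.51 ± 0.71 (95% interval 0.03 to 3.00, adjusted p 0.912, limma) was 0.70 when background was corrected by normexp, so its size depends on the background correction. It was 2.29 ± 0.73 on the first scan day and 0.92 ± 0.67 on the second.

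The TLR-DKO minus WT difference of the Dusp10 stress effect in the NAc was 4.32 ± 2.02, with an unadjusted p of 0.0446 and an adjusted p of 1.0 (limma), where 2.52% of all genes had an unadjusted p under 0.05 and 0.0% an adjusted one. It was 1.85 ± 1.21 with normexp, 6.95 among arrays of slide 3 and 0.46 among those of slide 4. In the mPFC the same difference was -3.99 ± 2.02 (95% interval -8.20 to 0.21), of the other sign. In naive NAc, where 1 of 3 TLR-DKO and 3 of 3 WT arrays detected Dusp10, the measured TLR-DKO minus WT difference was -3.09 ± 1.48 (unadjusted p 0.0484, adjusted p 1.0, limma). It was -1.29 ± 0.89 with normexp, and 3.29% of all genes had an unadjusted p under 0.05.

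Dusp16 averaged 1.46 ± 1.60 after R-SDS and 1.24 ± 1.19 (SD, n = 13 each) in naive mice. Its averaged stress difference was 0.24 ± 0.53 (95% interval -0.86 to 1.34). The third WT mPFC R-SDS array, not well above background at -3.56, was the lowest of all, and without the 2 arrays that stood apart the difference was 0.71.

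Dusp3 is a small phosphatase without the MAP kinase docking domain of the others, and it acts on several substrates besides MAP kinases. It was the member with the smallest p for genotype in naive mPFC. There Dusp3 read 3.60, 3.26, 4.51 and 2.70 on the TLR-DKO arrays, against 2.51, 1.71 and 1.1 on the WT arrays. Every TLR-DKO array lay above every WT array, as for 3.12% of all genes tested. In the same arrays the summed level of 7 perivascular macrophage markers was 4.14 to 5.88 in TLR-DKO and 2.64 to 3.92 in WT, also without overlap, and its part in the Dusp3 difference was not tested. The TLR-DKO minus WT difference was 1.74 ± 0.67, with an unadjusted p of 0.0169 and an adjusted p of 0.797 (limma), where 0.0121% of all genes passed and 5.69% had an unadjusted p under 0.05.

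After R-SDS the order of the mPFC groups was the other way, with 1.50, 2.98 and 3.23 in TLR-DKO arrays against 3.15, 2.51 and 4.33 in WT arrays. These overlapped, with a difference of -0.76 ± 0.72, and -0.26 ± 0.80 without the 2 arrays that stood apart. The TLR-DKO minus WT difference of the stress effect was -2.50 ± 0.98 in the mPFC, with an unadjusted p of 0.019 and an adjusted p of 0.81 (limma), where 6.09% of all genes had an unadjusted p under 0.05 and 0.0% an adjusted one. Within slides it was -2.08 ± 1.03 and -3.48 ± 1.39, and without the 2 arrays that stood apart -1.98 ± 1.07. With the mean of both Dusp3 probes it was -1.48 ± 1.09, and in naive mPFC the genotype difference was then 0.98 ± 0.74; the second probe was detected on 9 arrays only. In the NAc the same difference was 0.31 ± 0.98. In R-SDS mPFC the summed perivascular macrophage markers were at 2.91 to 3.61 in TLR-DKO and 3.55 to 5.74 in WT arrays. Their part in the Dusp3 values was not tested.

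Averaged over regions and conditions, none of the 8 members passed for genotype, where 0.0202% of all genes passed and 8.23% had an unadjusted p under 0.05. For Dusp16 the averaged difference was 0.75 ± 0.53 (95% interval -0.35 to 1.85), and 0.28 ± 0.40 without the 2 arrays that stood apart. In R-SDS mPFC alone, Dusp16 was then at -0.12 ± 0.88, against 1.68 ± 1.09 with them. For Dusp1 it was -0.06 ± 0.27 (-0.62 to 0.51) and for Dusp6 -0.10 ± 0.15 (-0.41 to 0.22). No member was higher, or lower, in TLR-DKO than WT in all 4 region and condition pairs, against 4.69% and 14.8% of all genes.

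Between regions, Dusp3 averaged 2.08 ± 0.87 in the NAc and 2.85 ± 1.01 (SD, n = 13 each) in the mPFC. The NAc minus mPFC difference was -0.73 ± 0.35, with an unadjusted p of 0.0486 and an adjusted p of 0.322 (limma), where 0.898% of all genes passed and 15.4% had an unadjusted p under 0.05. Each region was hybridised on slides of its own, and with slide as a random block the difference was -0.76 ± 0.47 with an adjusted p of 0.879. With both probes averaged it was -0.05 ± 0.39. Of the other members, Dusp10 was -1.18 ± 0.71 and Dusp4 1.01 ± 0.70, and none passed. Dusp4 was detected on 10 of 26 arrays and entered the tests only through a NAc group. That selection favours a higher NAc value, so no regional difference is read from it.

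The phosphatases did not share one pattern over the 26 arrays. Over all pairs of the 8 members, Pearson's r lay between -0.63 (Dusp6 and Dusp16) and 0.51 (Dusp2 and Dusp16). These were -0.38 and 0.16 without the third WT mPFC R-SDS array, over 25 arrays. Arrays share slides, scan days and groups, so the correlations describe these arrays only.

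The genes whose pattern was most like each member were taken by Pearson's r over 26 arrays, among 14367 genes named through RefSeq. For Dusp1 they were Fos (r 0.86) and Fosb (0.82), immediate early transcription factors, and the phosphatase Dusp18 (0.75). Dusp1 and Fos had an r of 0.86 on the first scan day and 0.87 on the second, and 0.88 over the 24 arrays without those that stood apart. For Dusp6 they were the microglial purine receptor P2ry12 (0.87), the adaptor protein Ywhah (0.85) and the macrophage surface receptor Adgre1 (0.85). Without the arrays that stood apart these were 0.81, 0.75 and 0.74.

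For Dusp2 the closest were the transcriptional regulator Cited2 (0.82), the complement receptor C3ar1 (0.75) and the cytokine Tnfsf9 (0.75). Without the 2 arrays that stood apart these were 0.69, 0.65 and 0.58. For Dusp16 they were the signalling adaptor Gab1 (0.86), the import receptor Ipo9 (0.82) and Tceal8 (0.81), and 0.73, 0.62 and 0.67 without those arrays. For Dusp3 they were the ubiquitin ligase Huwe1 (0.78), the ferritin light chain Ftl1 (0.76) and the actin-binding Cotl1 (0.76). For Dusp7 they included Vmn2r80 (0.75) and Ambra1 (0.75), and 0.61 and 0.62 without those arrays. For Dusp10 they were Erlec1 (0.77), Emg1 (0.73) and 1700001L05Rik (0.72), and for Dusp4 they included Olfr198 (0.61) and Cds2 (0.56).

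**Figure D4:**
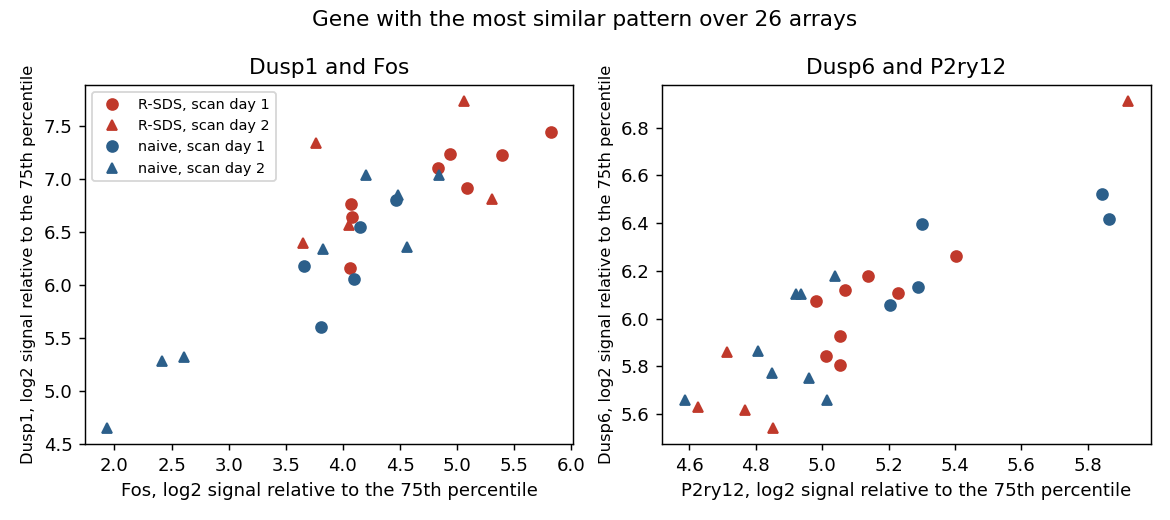
Dusp1 against Fos and Dusp6 against P2ry12, each on the log2 scale with 0 at the 75th percentile, over 26 arrays (red R-SDS, blue naive; circles scan day 1, triangles scan day 2). The points rise together, with r of 0.86 and 0.87, and the 3 lowest Dusp1 arrays, all naive, also have the lowest Fos.

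The rest of the pathway was examined as gene lists in the averaged stress effect, where 0 genes of any list passed at an adjusted p under 0.05. Of 8 MAP kinases tested, 5 lay above 0, with a median difference of 0.03. Mapk9 was at -0.91 ± 0.63 and Mapk11 at 0.17 ± 0.16. Of 22 kinases and Ras proteins upstream, 12 lay above 0, with a median of 0.03; Map2k2 was at -0.93 ± 0.32 and Araf at -0.83 ± 0.31, with adjusted p-values of 0.809 and 0.855 (limma). Of 10 kinases downstream, 5 lay above 0, with a median of 0.03, Mknk1 at 0.50 ± 0.38 and Rps6ka1 at -0.26 ± 0.22. The medians were close to that of all genes tested, 0.04.

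Of 14 other dual-specificity phosphatases tested, 9 lay above 0, with a median of 0.11. Dusp18 was at 1.80 ± 0.64 (adjusted p 0.815, limma) and Dusp13 at -0.34 ± 0.19. Of 10 other feedback inhibitors of ERK, 5 lay above 0, with a median of 0.05; Spred2 was at 1.03 ± 0.56 and Spred1 at -0.55 ± 0.32.

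In the averaged stress effect, 55.9% of all genes tested lay above 0 and 5.46% had an unadjusted p under 0.05. Of 23 early genes and transcription factors listed as responsive to MAP kinases, 19 were above 0, with a median of 0.18. Of these 23, 8 had an unadjusted p under 0.05, of which Etv5 and Elk3 lay below 0. Fos was at 0.93 and Fosb at 0.79, while Etv5 and Elk3 were at -0.44 ± 0.13 and -0.73 ± 0.23. Of 13 glucocorticoid receptor targets tested, 12 were above 0, with a median of 0.54. Ddit4, which inhibits mTOR signalling, was at 1.83 ± 0.30 with an adjusted p of 0.0571 (limma), and Tsc22d3, which encodes a glucocorticoid-induced leucine zipper, at 1.21 ± 0.22 with an adjusted p of 0.107. Both lists hold Zfp36. The lists were chosen with earlier results of these data known, so their counts and medians are not independent support. In the region effect, Mapk11, a p38 kinase, was lower in the NAc, with a difference of -0.999 ± 0.16 (adjusted p 0.00787, limma), the only gene of the pathway lists that passed in any of the 13 comparisons. With slide as a random block, 0 of all genes passed in the region effect.

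**Figure D5:**
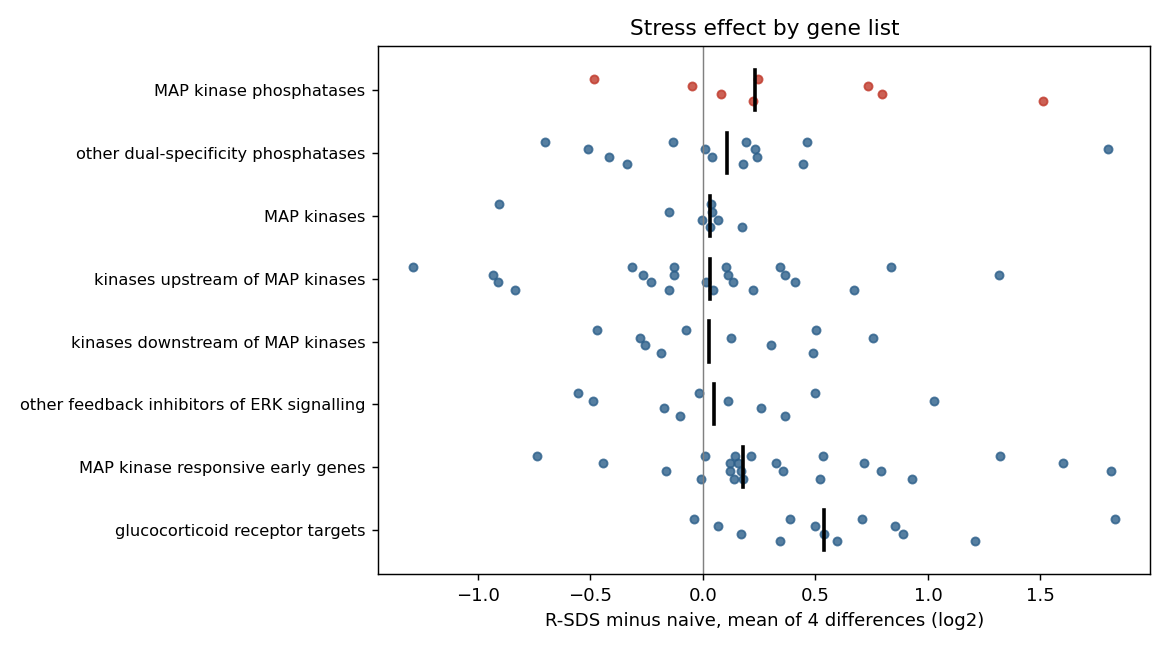
Averaged R-SDS minus naive difference (x axis, log2) of each gene tested in the phosphatase members (red) and 7 related lists (blue), with black bars at list medians. Glucocorticoid receptor targets have the highest median, 0.54, against 0.23 for the phosphatases. The lists were chosen with earlier results of these data known.

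Markers of other cells were measured beside these values. The summed level of 9 astrocyte markers was 4.12 to 6.22 after R-SDS (median 4.36) and 3.54 to 5.15 in naive mice (median 4.30). That of 11 neuron markers was 4.84 to 6.84 after R-SDS (median 5.45) and 4.87 to 6.62 in naive mice (median 5.33). These ranges overlapped over the 13 arrays of each condition, and 4 markers of each list were detected on all arrays. Within WT NAc the astrocyte sum was 4.12 to 5.26 after R-SDS and 3.54 to 3.87 in naive mice, without overlap. In TLR-DKO mPFC the summed perivascular macrophage markers were lower after R-SDS, at 2.91 to 3.61 against 4.14 to 5.88 in naive mice, also without overlap. In the averaged stress effect the astrocyte markers Slc1a2 and Gja1 were at 2.52 ± 0.81 and 1.55 ± 0.70, and the mural marker Vtn at 1.73 ± 0.82, with adjusted p-values of 0.772, 0.912 and 0.912 (limma). F13a1, a marker of perivascular macrophages, differed by -5.55 ± 0.98 between NAc and mPFC (adjusted p 0.0122, limma). The endothelial marker Cldn5 differed by -0.93 ± 0.22 in the same comparison (adjusted p 0.0458, limma). Fcrls differed by -1.17 ± 0.19 between TLR-DKO and WT (adjusted p 0.0315, limma), the only one of the 12 microglia markers that passed there. Their part in the phosphatase values was not tested.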

How the data were processed

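Gene expression was measured on 26 one-colour Agilent arrays. Per the file headers, Agilent Feature Extraction 11.0.1.1 produced the deposited intensity of each spot, background-subtracted by the authors' scanner software. The deposited table of the series holds log2 values, which matched the scanner values with r of 1.0 and shifts of at most 0.0619, with column medians between -2.90 and -2.21; its values were used as an alternative.

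The log2 intensity was taken minus each array's 75th percentile. Control spots and outlier-flagged spots were left out, and spots of a probe were averaged. Of 55681 probes, 28026 matched a RefSeq gene through their accession; probes without a match kept their own name. A gene was tested if a group had 3 or more arrays with its probe well above background, and its brightest probe stood for it. All 24735 genes were fitted with limma 3.58.1 (lmFit, eBayes) in R 4.3.3, with 8 group means over 26 arrays and Benjamini-Hochberg adjustment over all genes at a threshold of 0.05. The fit was tested on simulated data.

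The genes named are the 9 members, the 3 named genes most correlated with each (some of these are not reported here), and, of each pathway list, those past the threshold and the 2 with the smallest p in the averaged stress effect. The members and lists were chosen with earlier results of these data known. Fos and Fosb are also named within their list. Cell markers are named where they passed the threshold, as are some of other cells with an unadjusted p under 0.05 in the averaged stress effect. Motifs were counted in 250 bases before each start in RefSeq promoters (GRCm38.p6). Depth has no counterpart on arrays, and the number of arrays limits the precision. Alternatives changed the background correction, normalization, filter, probe choice, batch terms and arrays used; a normexp correction of the mean signal was planned, but the files used hold the median signal, which was corrected in its place.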

Additional observations from a re-analysis of the deposited data

Results flagged for a closer look

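Dusp2 read 3.05 on the first TLR-DKO mPFC naive array, while the other 3 arrays of the group read 3.89 to 4.06. Its distance from the others exceeded Dixon's 95% critical value. This array was also one of the 2 that stood apart over all genes. Chance gives such a distance in about 1 in 20 groups, and 18 groups of 4 arrays were examined, counting each of the 9 genes in each group.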

How the results depend on the processing

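Under 49 other settings, 3059 member differences were recomputed. None passed the threshold, and 253 had another sign than the value reported. The count of members past the threshold was 0 in all 13 comparisons under every setting that could be run, single arrays left out included (range 0 to 0). Replicate numbers were not treated as pairs. Same-numbered arrays of different groups had median correlations of 0.06 in both regions, with the lowest at -0.08 in the mPFC and -0.14 in the NAc. Arrays of different numbers had medians of -0.02 in the mPFC and -0.06 in the NAc. These values do not exclude pairing, and arrays of different regions were not compared. With the replicate block, the averaged stress difference of Dusp1 was 0.80 with an adjusted p of 0.644 (limma), no member passed in any comparison, and 281 genes passed in the region effect, against 222 without it. Over all genes, the region effect ranged from 0 genes with slide as a random block to 447 with array weights, the averaged stress effect from 0 to 10, and the averaged genotype effect from 2 with quantile normalization to 14 with array weights, against 5 reported. The genotype effect in R-SDS mPFC gave 3 genes, with a range of 0 to 13, and the TLR-DKO mPFC stress effect 0, with a range of 0 to 4. The median of all genes was 0.17 in the WT mPFC stress effect and -0.24 in the R-SDS mPFC genotype effect; with each array centred on its median instead, the averaged stress differences were 0.70 for Dusp1 and -0.58 for Dusp7. The normexp correction of the median signal was added after seeing the data, since the planned correction of the mean signal was not run. Dim probes limit Dusp4, Dusp5 and Dusp10.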
